A study of Mus musculus with 9 samples.

Results

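A set of 9 genes that mark inhibitory neurons was read in RNA from hippocampal synaptoneurosomes, a preparation in which resealed nerve endings, often with part of the facing spine, are concentrated. They are Gad1, Gad2 and Slc32a1, which make GABA and load it into vesicles, and Pvalb, Sst, Vip, Cck, Npy and Calb2, which mark classes of interneuron. The 9 were chosen by symbol, and each matched 1 of the 22255 Ensembl identifiers of the table once version numbers were removed. All 9 samples came from mice lacking Fmr1 on the C57Bl/6J strain, a model of fragile X syndrome, and there is no wild-type group here. The treated mice (4 samples, lettered A, B, C and E) received AM6545, a blocker of the cannabinoid receptor CB1 that enters the brain poorly, and the controls (5 samples, lettered A to E) received vehicle. Treatment was sub-chronic per the series' design text, and age, dose and the kind of Fmr1 allele are not given in the sources used here. The fraction mixes terminals of every neuron type with other cell fragments. Nothing in the labels says whether a sample is 1 animal or a pool. The p-values set group differences against the spread between these samples, which need not be the spread between animals.

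GABA, the main inhibitory transmitter of the forebrain, is made from glutamate by glutamate decarboxylase, whose isoforms GAD67 and GAD65 are encoded by Gad1 and Gad2. The transporter VGAT, encoded by Slc32a1, packs it into synaptic vesicles. Hippocampal interneurons are few beside pyramidal and granule cells but fall into many classes, told apart by calcium-binding proteins such as parvalbumin (Pvalb) and calretinin (Calb2) and by peptides such as somatostatin (Sst), neuropeptide Y (Npy), cholecystokinin (Cck) and vasoactive intestinal peptide (Vip). CCK basket cells carry the receptor CB1 on their terminals at high levels, which parvalbumin basket cells do not. Not all of these genes are restricted to interneurons: Cck is also transcribed in pyramidal cells, and Calb2 in mossy cells of the mouse dentate hilus.

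The promoters of the peptide genes among the members are shown. By Pearson's r over all 9 samples Sst, Cck and Npy varied together, with limits described further on, and Vip was in none of those pairs. Any part of the marked motifs in the levels was not tested. Each line gives the 250 bases before the RefSeq transcription start (build GRCm38.p6), 5′ to 3′ on the gene's strand. Capitals mark TGACG or its reverse complement on either strand, the core of the cyclic AMP response element. Where matches on both strands overlap they form the full palindrome, TGACGTCA.
Sst (chr16:23890845-23891094, minus strand): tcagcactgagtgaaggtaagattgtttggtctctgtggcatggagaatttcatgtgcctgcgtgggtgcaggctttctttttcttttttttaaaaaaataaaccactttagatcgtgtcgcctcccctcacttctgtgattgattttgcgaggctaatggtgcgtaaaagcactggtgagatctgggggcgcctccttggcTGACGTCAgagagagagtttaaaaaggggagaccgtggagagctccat
Cck (chr9:121495695-121495944, minus strand): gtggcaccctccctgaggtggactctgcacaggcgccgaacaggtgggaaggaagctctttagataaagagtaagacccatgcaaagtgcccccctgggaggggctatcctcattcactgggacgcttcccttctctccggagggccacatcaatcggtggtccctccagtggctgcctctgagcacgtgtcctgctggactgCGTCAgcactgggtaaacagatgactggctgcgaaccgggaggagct
Vip (chr10:5638968-5639217, plus strand): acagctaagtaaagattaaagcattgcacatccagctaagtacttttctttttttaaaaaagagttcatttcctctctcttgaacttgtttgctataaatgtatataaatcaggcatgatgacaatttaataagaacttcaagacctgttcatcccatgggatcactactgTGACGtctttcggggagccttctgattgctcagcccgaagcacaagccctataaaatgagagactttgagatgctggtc
Npy (chr6:49822460-49822709, plus strand): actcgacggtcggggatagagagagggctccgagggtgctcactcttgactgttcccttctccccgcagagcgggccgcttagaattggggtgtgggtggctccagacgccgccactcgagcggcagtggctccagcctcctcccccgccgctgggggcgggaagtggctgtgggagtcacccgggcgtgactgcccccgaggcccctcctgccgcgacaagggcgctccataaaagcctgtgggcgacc
The palindrome lay 48 bases before the start in Sst. Cck and Vip each held 1 core motif, beginning 47 and 79 bases before the start, and Npy held none in this window. Of 32851 RefSeq promoters of this length, 17.8% held TGACG on either strand and 1.55% the palindrome. Of the 8 members with a promoter entry, 4 held the core motif, the fourth being Gad2. These matches are descriptions of sequence, and no binding was measured.

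Libraries held 17628922 to 27263393 counts. Fmr1, the targeted gene, was counted in every sample, at 9.45 to 11.1 CPM with AM6545 and 10.3 to 13.3 CPM with vehicle (CPM, a gene's share of its library after TMM normalization). With no wild-type samples these values do not check the genotype. All 12 glutamatergic principal neuron markers, among them Slc17a7, Camk2a and Prox1, passed the count filter, with a summed level of 2549 to 3006 CPM over the samples. Markers of neighbouring tissue differed between libraries. The 6 choroid plexus markers summed to 60.5 to 930 CPM with AM6545 and 47.6 to 4329 CPM with vehicle. The vehicle sums were 3997 CPM in A, 307 in B, 47.6 in C, 4329 in D and 2137 in E. Vehicle A had the highest levels of pituitary genes, with Gh at 51.8 CPM and Pomc at 23.0 CPM. A list of 12 hypothalamic and pituitary peptide genes summed to 83.7 CPM there. The sum was 4.01 to 6.55 CPM in the other vehicle samples and at most 6.05 CPM in any AM6545 sample. The part of these neighbouring tissues in the results was not tested. Each member's value without vehicle A is given, which still includes vehicle D and E with their high choroid plexus sums.

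Between groups, none of the 9 genes differed beyond the replicate error. By edgeR's quasi-likelihood test with Benjamini-Hochberg adjustment over all genes, 0 of 9 had an adjusted p under 0.05, where 0 of 14512 genes (0%) passed in all. No member had an unadjusted edgeR p below 0.05 (0 of 9), where 7.21% of all genes did, 3.03% higher and 4.18% lower. DESeq2 gave 0 past the adjusted threshold (smallest adjusted p = 0.787) and 1 at an unadjusted p under 0.05, Pvalb. The share of all genes at that p by DESeq2 is not given here. The group ranges overlapped for every member, while 1.45% of all genes had ranges that did not overlap. As signs alone, the 3 genes of GABA synthesis and loading had positive log2 fold changes and the 6 class markers negative ones. Calb2 turned positive without AM6545 E, and Cck with sample weights in limma-voom. Other genes of the same interneuron classes, described further on, fell on both sides of 0. The median over the 9 was -0.12, beside -0.009 over all genes tested, of which 51.8% were below 0.

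**Figure D1:**
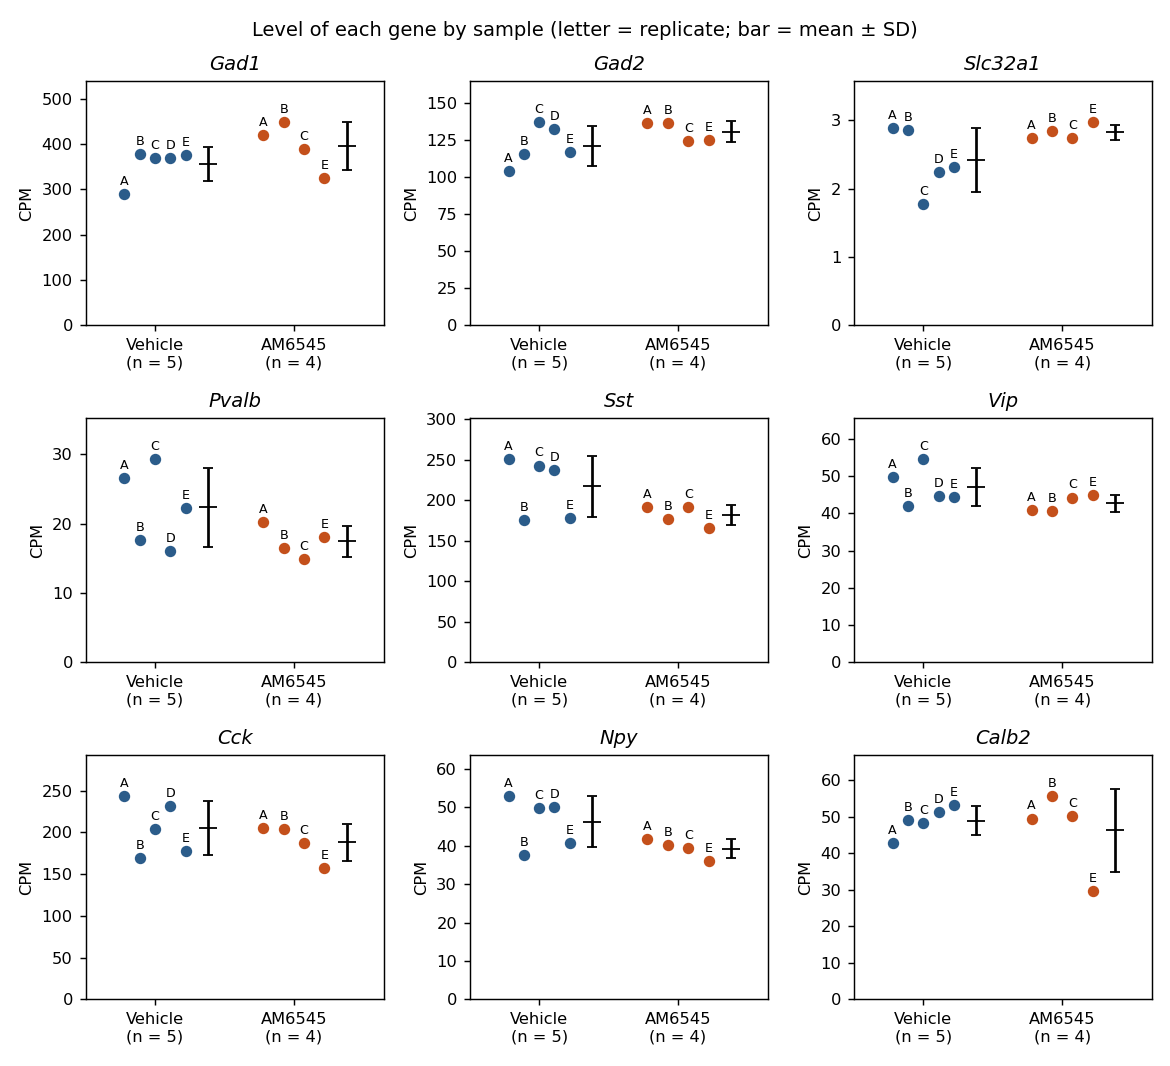
Level of each gene in CPM on an axis from 0, with 1 point per sample, its replicate letter above it, and the group mean ± SD as a black bar. The ranges of vehicle and AM6545 samples overlap in all 9 panels, and vehicle B and E lie with the AM6545 samples for Sst and Npy.

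Gad1 encodes GAD67, the source of most basal GABA. Its level was 419, 449.9, 390.4 and 325 CPM in AM6545 A, B, C and E, and 290.02, 378, 369, 369.6 and 377 CPM in vehicle A to E. In all, 3 of 4 AM6545 samples lay above every vehicle sample, AM6545 E lay below 4 of the 5, and vehicle A was the lowest of all. The means were 396 ± 53.3 CPM (SD, n = 4) and 357 ± 37.6 CPM (SD, n = 5). The log2 fold change of 0.15 (SE 0.12, edgeR adjusted p = 0.717) ran from 0.08 without AM6545 B to 0.23 without AM6545 E, and was also 0.08 without vehicle A.

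Gad2, whose product GAD65 sits on vesicles in the terminal, was at 137, 137, 124 and 125 CPM in AM6545 A, B, C and E. In vehicle A to E it was at 104, 116, 137, 132 and 117 CPM. Vehicle A was again lowest, while vehicle C matched the highest AM6545 samples. The log2 fold change was 0.11 (SE 0.10, edgeR adjusted p = 0.757), with 4 of 4 AM6545 samples above the vehicle mean of 121 ± 13.5 CPM (SD, n = 5); leaving out vehicle A gave 0.06 and leaving out vehicle C gave 0.16. Within a sample the CPM ratio of Gad1 to Gad2 stayed between 2.60 and 3.29, with means of 3.03 ± 0.299 (SD, n = 4) and 2.96 ± 0.274 (SD, n = 5).

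Slc32a1, the vesicular GABA transporter, was measured from only 35 to 78 counts per sample. It was at 2.74, 2.84, 2.75 and 2.98 CPM in AM6545 A, B, C and E, and at 2.89, 2.85, 1.78, 2.24 and 2.32 CPM in vehicle A to E. The AM6545 samples sat close together near the top of the vehicle range, and vehicle C was lowest. The log2 fold change of 0.23 (SE 0.19, edgeR adjusted p = 0.733) rests on few counts and was 0.14 without vehicle C and 0.29 without vehicle A. In GENCODE M21 an antisense model, Gm14205, overlaps Slc32a1, and Gad1os overlaps Gad1; the strand setting of the counting is not given in the sources used here.

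**Figure D2:**
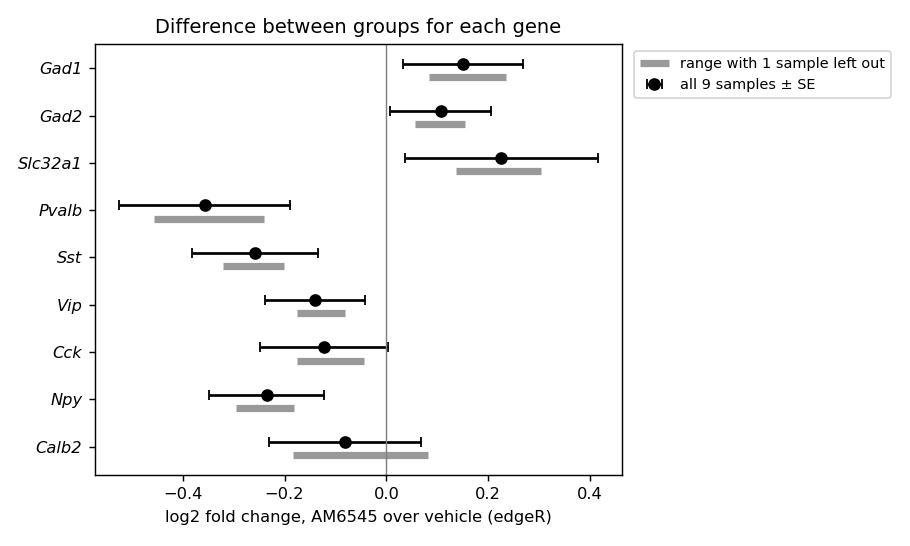
Log2 fold change of AM6545 over vehicle for each gene: black points with bars are edgeR's estimate ± SE from all 9 samples, and grey bars the range of the estimate with each sample left out in turn. Gad1, Gad2 and Slc32a1 lie to the right of 0 and the 6 class markers to the left, and the grey bar of Calb2 crosses 0.

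Among the calcium-binding proteins, Pvalb, the buffer of fast-spiking basket and axo-axonic cells, had the largest difference of the 9 in size. It was at 20.3, 16.5, 14.9 and 18.04 CPM in AM6545 A, B, C and E, and at 26.6, 17.6, 29.3, 16.0 and 22.3 CPM in vehicle A to E. Vehicle A, C and E were above every AM6545 sample, and vehicle B and D were within the AM6545 range. The means were 17.4 ± 2.27 CPM (SD, n = 4) and 22.4 ± 5.68 CPM (SD, n = 5), which gives -0.36 as the log2 fold change (SE 0.17, edgeR unadjusted p = 0.0522, adjusted p = 0.653). All 4 AM6545 samples lay below the vehicle mean; the change ran from -0.46 without vehicle D to -0.24 without vehicle C, and was -0.29 without vehicle A. The two-sided exact permutation test of mean log2 CPM gave p = 0.175, where the smallest p it can give is 0.0159.

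Calb2, the calretinin gene, differed least between groups in log2 fold change. It was at 49.5, 55.6, 50.3 and 29.8 CPM in AM6545 A, B, C and E, and at 42.6, 49.2, 48.3, 51.3 and 53.2 CPM in vehicle A to E. AM6545 E was the lowest of all samples, and the other three treated samples lay within or above the vehicle range. The log2 fold change of -0.08 (SE 0.15, edgeR adjusted p = 0.890) turned to 0.08 without AM6545 E, so its sign rested on that sample, and was -0.13 without vehicle A.

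Of the peptide genes, Sst, which marks dendrite-targeting interneurons of the stratum oriens and hilus, was at 191, 177, 192 and 166 CPM in AM6545 A, B, C and E. In vehicle A to E it was at 251, 175, 243, 238 and 178 CPM. The vehicle samples thus fell apart: A, C and D were above all AM6545 samples, and B and E were among them. The means were 182 ± 12.4 CPM (SD, n = 4) and 217 ± 37.1 CPM (SD, n = 5), which gives -0.26 as the log2 fold change (SE 0.12, edgeR unadjusted p = 0.0568, adjusted p = 0.653). All 4 AM6545 samples lay below the vehicle mean, and the change was -0.20 without vehicle A.

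Npy, a peptide of several interneuron classes including many Sst cells and ivy cells, had the same layout over samples. It was at 41.7, 40.2, 39.3 and 35.95 CPM in AM6545 A, B, C and E, and at 53.0, 37.5, 49.8, 50.1 and 40.8 CPM in vehicle A to E. Vehicle A, C and D were again above all AM6545 samples, and vehicle B and E were among them. Between groups the log2 fold change was -0.23 (SE 0.11, edgeR unadjusted p = 0.0558, adjusted p = 0.653), and -0.18 without vehicle A. Over the 9 samples Sst spanned 1.51-fold and Npy 1.47-fold, while their CPM ratio, which is not set per length, stayed between 4.37 and 4.88.

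Cck, the peptide of CB1-bearing basket cells and of many pyramidal cells, was at 205, 204, 187 and 157 CPM in AM6545 A, B, C and E. In vehicle A to E it was at 244, 169, 204, 231 and 178 CPM. Vehicle A and D were the highest samples and AM6545 E the lowest, with the rest intermixed. The log2 fold change was -0.12 (SE 0.13, edgeR adjusted p = 0.783); it was -0.05 without vehicle A and -0.04 without AM6545 E. Cnr1 itself, which encodes CB1, had a log2 fold change of 0.01 (SE 0.11, edgeR adjusted p = 0.989).

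Vip, the peptide of interneurons that mostly contact other interneurons, varied least of the peptide genes, by 1.34-fold over all samples. It was at 40.8, 40.6, 44.3 and 45.0 CPM in AM6545 A, B, C and E, and at 49.7, 41.9, 54.6, 44.6 and 44.5 CPM in vehicle A to E. Vehicle A and C stood above the rest, which were intermixed. Its change between groups was -0.14 on the log2 scale (SE 0.10, edgeR adjusted p = 0.697), -0.08 without vehicle C and -0.12 without vehicle A.

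In this bulk RNA, fewer cells or terminals of a class and less RNA in each cannot be told apart. A trend of counts with transcript length differed between libraries. Its mean with AM6545 minus that with vehicle had the sign of the log2 fold change at every member's length except that of Gad1. It was -0.10 log2 units at the length of Npy, -0.02 at that of Vip and -0.05 at that of Gad1. Median protein-coding lengths were 566 bases for Npy, 691 for Cck, 721 for Sst, 965 for Pvalb, 1138 for Gad1, 1255.5 for Calb2 and 1530 for Vip, beside 2254 over the genes tested, and 2797 for Slc32a1 and 5744 for Gad2. For Gad1, 1138 bases is the median of 5 protein-coding transcripts and the longest has 3355 bases, so its place in this order depends on the transcript assumed. The part of length in the differences between groups was not tested. At the length of Npy, each library's lowess trend against the mean of all libraries was 0.18 log2 units in vehicle A, 0.07 in vehicle C and D, and -0.05 to -0.06 in vehicle B and E, with the AM6545 samples from -0.08 to -0.03. With the trend removed the log2 fold change of Npy was -0.13, of Sst -0.17, of Cck -0.03, of Pvalb -0.29 and of Vip -0.12. Gad1, taken at its median length, was then at 0.20 and Gad2 at 0.07. The 9 genes kept their signs, and none passed the adjusted threshold before or after.

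**Figure D3:**
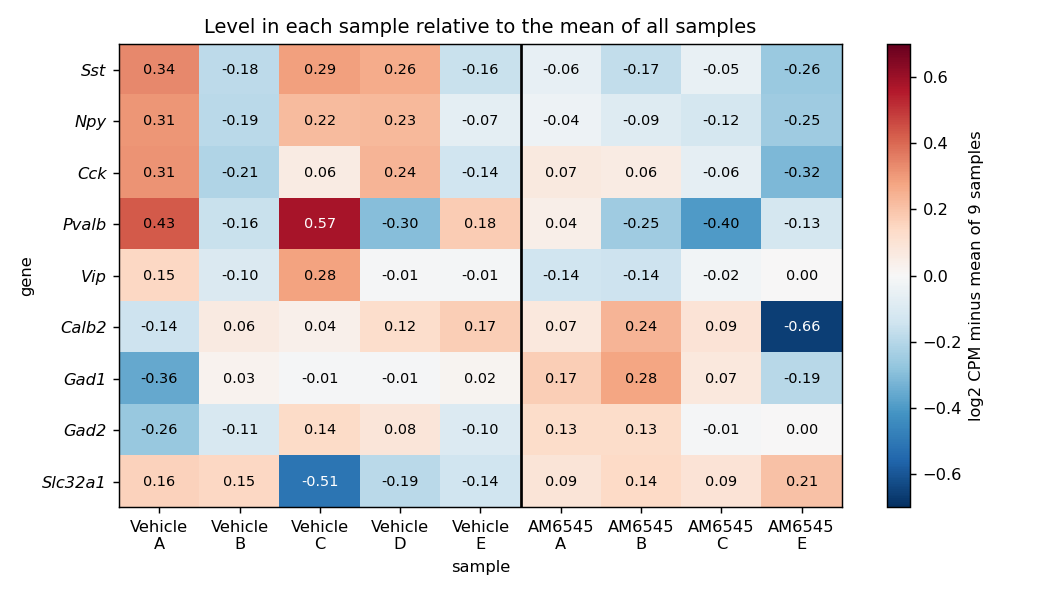
Log2 CPM of each gene in each sample minus its mean over the 9 samples, as numbers and colour (red higher, blue lower), with vehicle samples left of the black line and AM6545 samples right of it. Sst, Npy and Cck are above their means in vehicle A, C and D and below them in vehicle B and E, and Gad1 is lowest in vehicle A.

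Whether markers of different classes varied together was asked over all 36 pairs of the 9 genes, with log2 CPM, two-sided exact permutation p and Benjamini-Hochberg adjustment over the pairs. By Pearson's r, 3 pairs passed an adjusted p of 0.05, all positive: Sst with Npy, Cck with Npy and Sst with Cck. Because the samples fell into separate clusters for Sst, with 6 under 200 CPM and 3 above, no pooled r is given for these pairs. Within the 6 lower samples Sst and Npy had r = 0.73 (exact permutation p = 0.0917, adjusted p = 0.345) and rho = 0.66 (exact p = 0.175, adjusted p = 0.604). Cck and Npy had r = 0.86 there (exact p = 0.0361, adjusted p = 0.345) and rho = 0.83 (exact p = 0.0583, adjusted p = 0.525). Sst and Cck had r = 0.73 (exact p = 0.10, adjusted p = 0.345) and rho = 0.71 (exact p = 0.136, adjusted p = 0.604). With 6 samples the smallest exact p is 0.00278, too large for a single pair to pass adjustment over 36, so the adjusted values there say nothing of whether the pairs varied together. The split also narrows the range of Sst. The pooled count of 3 pairs also fell to 0 once the length trend was removed, and to 0 without vehicle A, without vehicle B or without AM6545 E. The coefficients themselves stayed positive with the length trend removed, at r = 0.91 for Sst with Npy, 0.80 for Cck with Npy and 0.67 for Sst with Cck over all 9 samples, which still include the gap between the clusters. The limit of 200 CPM was set after the values were seen, and all 4 AM6545 samples are among the lower 6.

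By rank correlation over all 9 samples, 3 pairs passed an adjusted p of 0.05. These were Gad1 with Vip, Cck with Npy and Sst with Npy. Cck with Npy had rho = 0.93 (exact permutation p = 0.00075, adjusted p = 0.0135). Sst with Npy had rho = 0.88 (exact permutation p = 0.00308, adjusted p = 0.0369). These Npy values include the gap between the Sst clusters. Gad1 and Vip ran in opposite order over the samples. Their rank correlation over 9 samples was rho = -0.93 (exact permutation p = 0.00075, adjusted p = 0.0135), while Pearson's r was -0.60 (exact p = 0.110, adjusted p = 0.401). Without vehicle A and AM6545 B, the samples farthest from the median of Gad1, r was -0.35. Gad1 and Gad2 had r = 0.71 (exact p = 0.0468, adjusted p = 0.310) and rho = 0.32 (exact p = 0.410, adjusted p = 0.703), and r was 0.20 without the same pair of samples, so that relation rested on those samples.

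The genes whose log2 CPM followed each member most closely over the 9 samples were drawn from 13396 others with a mean of at least 1 CPM, by Pearson's r as a measure of likeness only. They are the highest of 13396 values each, and no test was made of them. Closest to Sst were Rps13 (r = 0.978) and Mrps33 (r = 0.978), to Npy Nme2 (r = 0.990) and Oard1 (r = 0.988), and to Cck Ndufs8 (r = 0.978) and Rps3 (r = 0.973). These 6 have median transcripts of 717 to 1135 bases, and the genes named next 831 to 7640 bases. Lengths were 2727 and 7640 bases for the genes closest to Gad1, and 3115 and 1562 for those closest to Pvalb. The part of length in these likenesses was not tested. Closest to Gad1 were Dpysl4 (r = 0.995) and Hnrnpu (r = 0.993), to Gad2 Rimbp3 (r = 0.940) and Atg9b (r = 0.927), and to Slc32a1 Slc27a4 (r = 0.953) and Calr (r = 0.953). Pvalb was followed by Gpbp1l1 (r = 0.991) and Spdya (r = 0.960), Vip by Lsm12 (r = 0.988) and Ankrd29 (r = 0.979), and Calb2 by Coq9 (r = 0.993) and Eid2 (r = 0.972).

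Set per kilobase of transcript, so that genes can be compared, the levels differed widely. Over all 9 samples Gad1 averaged 329 CPM per kilobase, Cck 286, Sst 279, Npy 76.2, Calb2 38.0, Vip 29.5, Gad2 21.8, Pvalb 20.9 and Slc32a1 0.929. The ranges over samples of Gad1, Cck and Sst overlapped, as did those of Calb2 with Vip and Gad2 with Pvalb. Within samples, Gad1 was above Cck in 7 of 9 and Cck above Sst in 7 of 9. Calb2 was above Vip in 8 of 9 and Gad2 above Pvalb in 6 of 9. Sst was above Npy, Npy above Calb2, Vip above Gad2 and Pvalb above Slc32a1 in 9 of 9 samples. The place of Gad1 depended on the transcript assumed. With the longest protein-coding transcript (3355 bases) in place of the median of its 5 (1138 bases), it averaged 112 CPM per kilobase and came behind Sst and Cck.

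**Figure D4:**
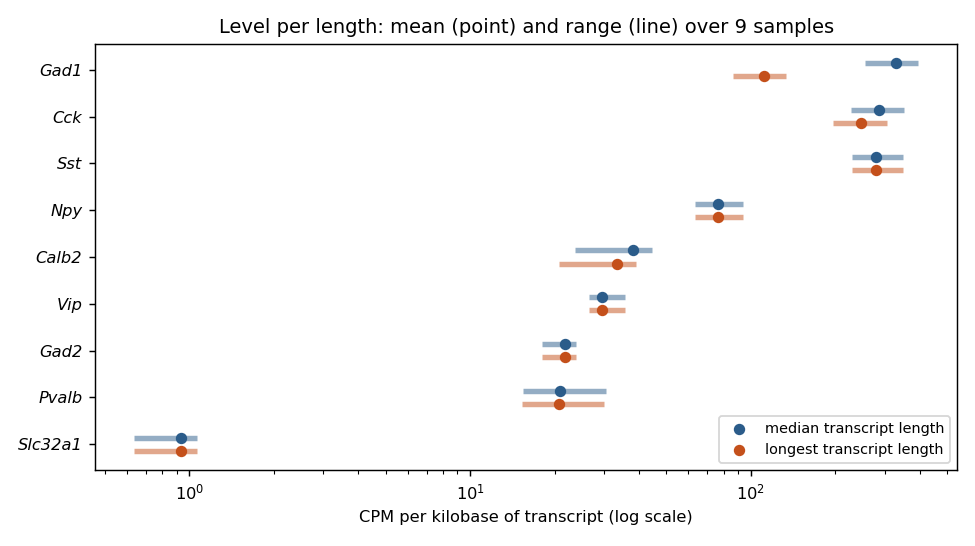
CPM per kilobase of transcript on a log axis, with the mean over 9 samples as a point and the range as a line, for the median (blue) and the longest (orange) protein-coding transcript length. Gad1 moves below Sst and Cck with the longer length, and Slc32a1 lies apart from the rest at about 1 CPM per kilobase.

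The genes around these 9 in the GABA system were read from lists of textbook members. By edgeR's quasi-likelihood test, 0 genes of the 7 lists that follow passed an adjusted p of 0.05. The values given for them are log2 fold changes that did not pass, and the smallest adjusted p among all genes tested was 0.653. Of the 11 genes for GABA breakdown, uptake and glutamine supply, 10 had positive values and 1 a negative one, with a median of 0.13. The only negative one, the glutamine transporter Slc38a3, had -0.27 (SE 0.25). Abat, which breaks GABA down, was at 0.02 (SE 0.13); it and Cnr1, Sstr2, Cpe and Gphn were chosen after their values were seen.

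Of 14 interneuron transcription factors and fate genes, 13 were tested, 5 positive and 8 negative, with a median of -0.09. Of these, 2 had an unadjusted p under 0.05, in opposite directions, and ranges that did not overlap, beside 7.21% and 1.45% of all genes tested. Nr2f2 (COUP-TFII), a fate gene of interneurons from the caudal ganglionic eminence, was at 19.7, 20.2, 21.8 and 25.7 CPM in AM6545 A, B, C and E. It was at 31.5, 25.9, 38.5, 26.5 and 28.9 CPM in vehicle A to E, a value of -0.47 (SE 0.13), and AM6545 E lay just under vehicle B. Npas1, a transcriptional repressor of developing interneurons, averaged 17.4 ± 1.32 CPM in treated samples (SD, n = 4) and 13.9 ± 1.60 CPM in controls (SD, n = 5), a value of 0.32 (SE 0.11).

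A further 15 genes of parvalbumin and somatostatin cells had a median of -0.005, 7 positive and 8 negative. Kcnc1, the Kv3.1 channel that lets parvalbumin cells fire fast, was at 107 ± 6.65 CPM with AM6545 (SD, n = 4) and 91.1 ± 8.21 CPM with vehicle (SD, n = 5), a value of 0.23 (SE 0.09). That sign is opposite to that of Pvalb. Cort, whose peptide resembles somatostatin, had -0.14 (SE 0.18).

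Among 13 other genes of CCK, VIP and neurogliaform cells, 8 were positive and 5 negative, with a median of 0.09. The 3 with an unadjusted p under 0.05, which 7.21% of all genes had, were the receptor kinase Kit at 0.34 (SE 0.13), the serotonin-gated channel subunit Htr3a at 0.24 (SE 0.11), picked for its p, and the helix-loop-helix factor Id2 at -0.29 (SE 0.10). The group ranges did not overlap for Htr3a, where 1.45% of all genes had such ranges, and overlapped for Kit and Id2. Kit and Id2 are not restricted to interneurons. The 13 receptors for the peptides included 11 that were tested, all with positive values and a median of 0.10. The range ran from 0.01 for Sstr2 to 0.55 (SE 0.32) for Vipr2, which was at 1.10 ± 0.399 CPM with AM6545 (SD, n = 4). None had an unadjusted p under 0.05. Sstr5 and Cckar had at most 9 and 2 counts in a sample.

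Of 7 genes for prohormone cleavage and amidation, 5 were positive and 2 negative, with a median of 0.06. Pcsk2, a convertase that cuts prosomatostatin and pro-NPY among others, had 0.25 (SE 0.11) with an unadjusted p of 0.0374, and its chaperone Scg5 had -0.09 (SE 0.11). Cpe, the carboxypeptidase that trims the cut peptides, was at 9079 ± 1039 CPM (SD, n = 4) and 9115 ± 1541 CPM (SD, n = 5). For 11 inhibitory postsynaptic scaffolds and adhesion proteins, 7 values were positive and 4 negative, with a median of 0.11. Mdga1, which binds the adhesion protein neuroligin-2, had 0.40 (SE 0.14, unadjusted p = 0.0108), the scaffold gephyrin (Gphn) 0.12 (SE 0.12) and Insyn2a -0.35 (SE 0.24). Over the same samples the 12 glutamatergic principal neuron markers had 9 positive and 3 negative values, with a median of 0.07.

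**Figure D5:**
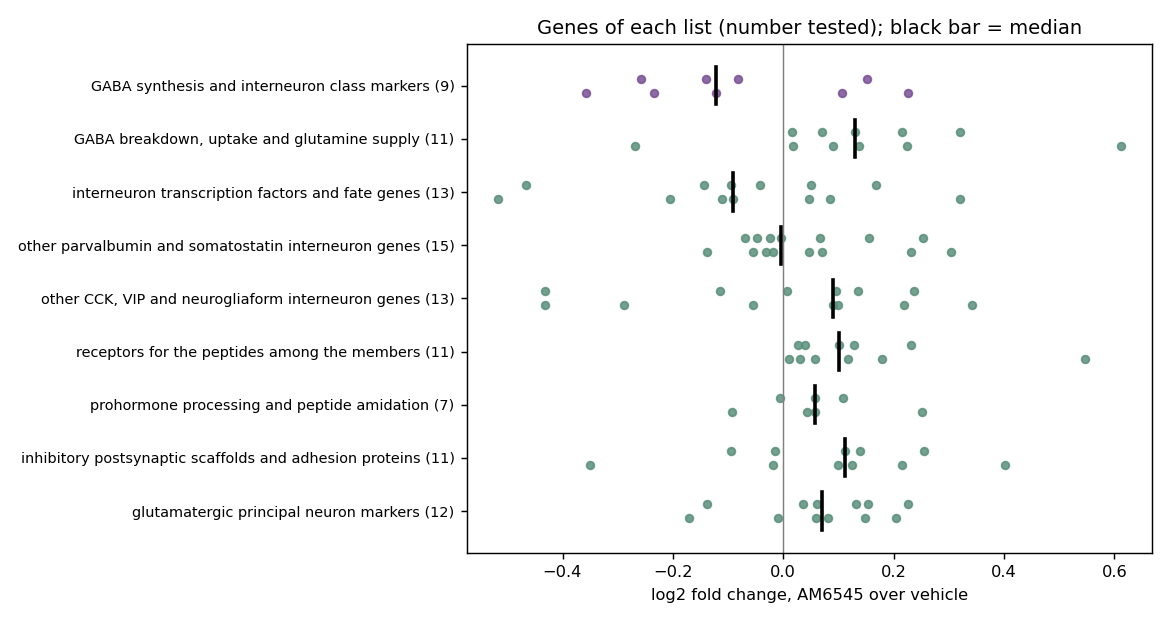
Log2 fold change of AM6545 over vehicle for the tested genes of each list (number in brackets), with the 9 markers in purple, other lists in green and the median as a black bar. The 11 peptide receptors all lie right of 0, and no gene shown passed an adjusted p of 0.05.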

How the data were processed

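RNA of hippocampal synaptoneurosomes was sequenced from libraries made with a SMARTer low-input kit, per the labels' protocols. The authors deposited 1 table of estimated counts per Ensembl gene. The submitters' processing notes name Salmon 1.3, DESeq2 1.30 and 2 genome builds without their role. The estimated counts were rounded. Genes passing filterByExpr (14512) were tested with edgeR 4.0.16 in R 4.3.3 (TMM, quasi-likelihood, Benjamini-Hochberg adjustment over all of them), with DESeq2 1.42.0 and limma 3.58.1 as alternatives. The SE is the absolute log2 fold change over the square root of F. Correlations used log2 CPM with a prior count of 2 and exact permutation over samples, with scipy 1.17.1. Symbols and lengths came from GENCODE M21, which named 22155 of the 22255 identifiers; the role of each build is not given, so no position is taken from the table, and promoter positions are RefSeq's on GRCm38.p6. Groups came from the treatment label and replicates from the title letter. Named genes were the 9 members, in each of 7 lists the gene with the smallest p in each direction, and the 2 genes most like each member. Some genes that this rule names are not reported here. The members and lists were chosen with earlier results of these data known. The tests were checked on simulated data. At an adjusted p under 0.05, edgeR recovered 47.5% of genes changed 1.5-fold, 80.9% of those changed 2-fold and 98.0% of those changed 4-fold. Smaller changes were not simulated.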

Additional observations from a re-analysis of the deposited data

Results flagged for a closer look

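In 5 of 86 groups of values over 43 genes, 1 sample lay far from the others by Dixon's test, where chance gives about 1 in 20, or 4.3. Gad1 was at 290.02 CPM in vehicle A (5020 counts), while the other vehicle samples lay from 369 to 378 CPM. Dpysl4 and Hnrnpu, which were chosen for their likeness to Gad1 and so are not independent of it, were also low in vehicle A. Dpysl4 was at 23.3 CPM there against 39.1 to 43.2 CPM, and Hnrnpu at 396 CPM against 482 to 507 CPM. In AM6545 E the glutamine transporter Slc38a3 was at 49.6 CPM, with the other treated samples from 34.6 to 36.2 CPM. Cort was at 3.81 CPM in AM6545 E (96 counts), with the others from 5.19 to 5.38 CPM.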

How the results depend on the processing

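Over 19 settings of the gene test and the difference of mean log2 CPM, 178 of 180 member values had the same direction as in the edgeR test of all samples, and the adjusted p over the 19 ran from 0.325 to 0.988. The exceptions were Cck at 0.011 with limma-voom and sample weights and Calb2 at 0.082 without AM6545 E. With each sample left out in turn, Calb2 ran from -0.182 to 0.082. Of the 15 named partner genes, Cort reversed, to 0.10 with limma-voom and sample weights. The cause of these changes was not tested. The number of genes past an adjusted p of 0.05 was 0 with all samples and 0 to 1 with a sample left out, the 1 arising without AM6545 A. The number of members at an unadjusted p under 0.05 was 0 by edgeR, 2 with total counts as scaling, and 1 with no count filter, with the DESeq2 Wald test and with robust estimation. It ran from 0 to 3 with each sample left out, reaching 3 without vehicle B, and was 1 with the title letter as a replicate block. The share of all genes at that p is given for the edgeR test of all samples alone (7.21%). The counts under other settings thus have no like share beside them and are not read as results about the members. The labels do not say whether the title letters pair samples. The correlation of deviations between samples of the same letter was 0.34 for C and -0.02 to 0.04 for A, B and E. Such correlations cannot exclude a shared batch, so the question stays undecided. The number of correlated member pairs was 3, fell to 0 with the length trend removed, and ran from 0 to 4 with a sample left out. With the longest transcript 2 members changed rank per length. Precision is limited most for Slc32a1, with as few as 35 counts.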
